A study of Xenopus tropicalis with 84 samples.

Results

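The 10 genes described here are *bmp4* and the genes of its ventral program in *Xenopus tropicalis*: *szl*, *bambi*, the 6 *ventx* genes *ventx1.1*, *ventx1.2*, *ventx2.1*, *ventx2.2*, *ventx3.1* and *ventx3.2*, and *msx1*. They were taken by gene symbol from 34192 genes in the polyA+ expression table, where all 10 were found. A second table, named for ribozero libraries, holds identical values, so that the files cannot show which of the 2 kinds of library the values come from, and they are called polyA+ after the table name and the labels. The treated embryos were injected with 10 ng of an antisense morpholino oligonucleotide against the start codon of *nup107* (*nup107* MO), and they were set against uninjected control embryos (UIC) from the same parents, raised at the same temperature. Each condition gave 21 polyA+ libraries, 1 for every 0.5 h between 2 and 12 h postfertilization (hpf), each from 10 pooled whole embryos. No control oligonucleotide was sequenced, so that injection itself and loss of Nup107 cannot be told apart.

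Bmp4 is a secreted ligand that marks the ventral side of the gastrula, where it signals through Smad proteins and is held back dorsally by antagonists from the organizer. The *ventx* genes encode homeodomain repressors that act downstream of BMP to keep organizer genes off ventrally, and Msx1 is another homeodomain target of the pathway. Sizzled, from *szl*, is a secreted feedback inhibitor that protects the antagonist Chordin from its protease, and Bambi is a membrane pseudoreceptor that blocks signaling.

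Expression is given as TPM, a transcript abundance scaled to transcript length and to the total of each library. It holds no read counts, so that depth is unknown and no counting interval is given. ERCC spike-ins took 4.60% to 5.98% of the TPM in *nup107* MO libraries and 4.46% to 6.35% in UIC libraries, and libraries of the same time point correlated at a Spearman rho of 0.980 or more across genes. *nup107* mRNA, which a translation-blocking oligonucleotide need not lower and which is no check of depletion, averaged 95.2 ± 25.9 TPM in *nup107* MO and 40.7 ± 13.4 TPM in UIC between 9 and 12 hpf (SD, n = 7 time points each). Each time point has 1 library per condition, so single ratios have no replicate check, and SDs over time points include real change over time.

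RNA of all 10 genes was found in *nup107* MO embryos, and their curves lay close to those of UIC embryos. A Gaussian process (GP) likelihood ratio (LR), which is above 0 when separate curves for *nup107* MO and UIC describe a gene better than a single curve, called 0 of the 10 genes, where 7.24% of 15011 genes tested were called (1087 genes). The LR ran from -19.97 for *bmp4* to -5.16 for *ventx1.1*, with a median of -12.68 for the 10 genes and -6.76 for all genes tested. For 9 of the 10 genes the LR was below the median of all genes, and *bmp4* had the 52nd lowest LR of the 15011. A low LR was not particular to the 10 genes. Among genes named below for their similar curves, it was -17.72 for *admp*, -13.83 for *tfap2a*, -13.05 for *wnt8a* and -11.55 for *dlx3*. The median of all genes includes maternal ones, and no LR median was taken over zygotic genes alone.

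**Figure D1:**
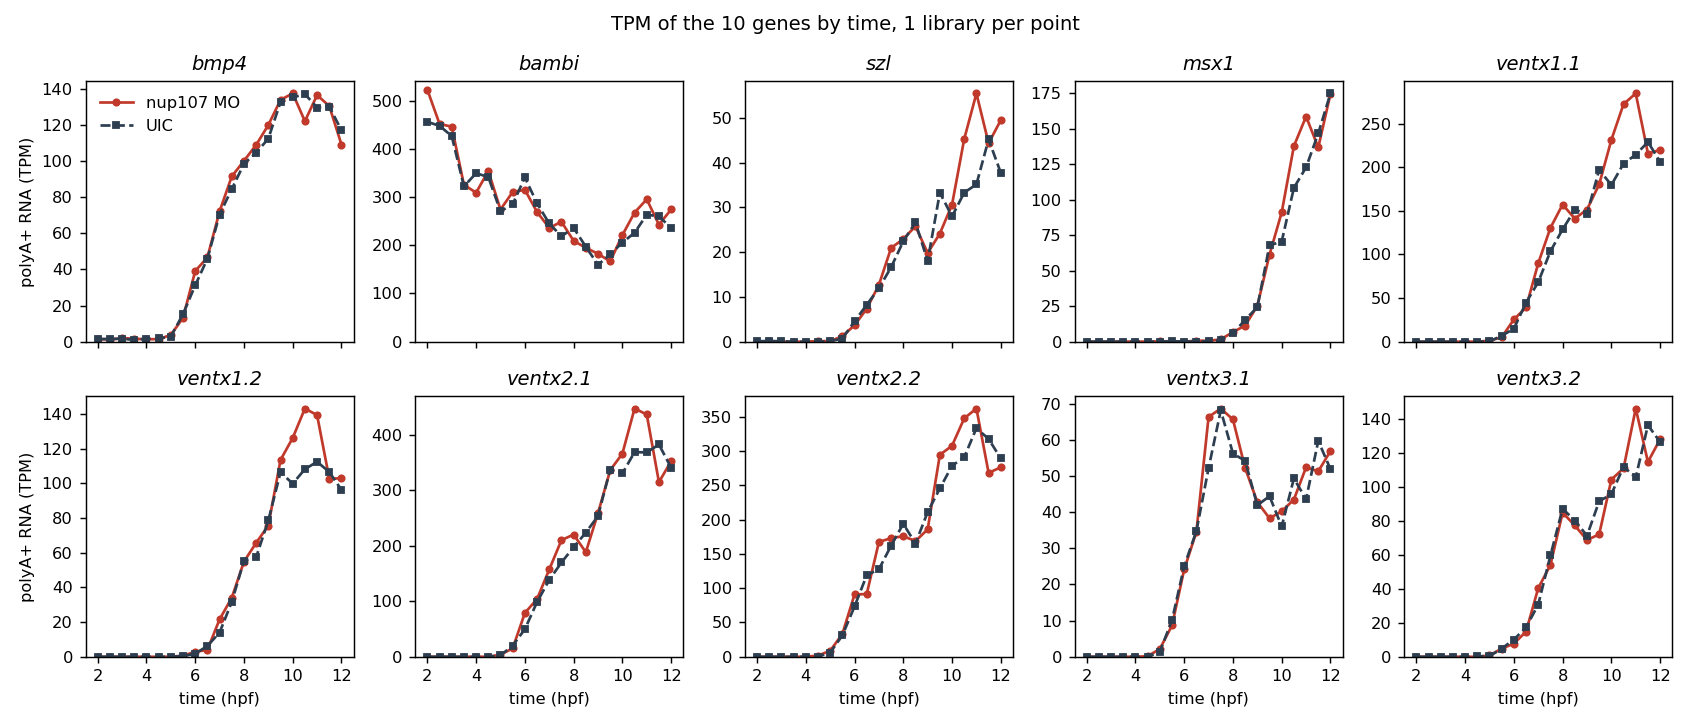
Expression of the 10 genes in TPM (linear vertical axes, each starting at 0) against time in hpf, with *nup107* MO in red circles and UIC in dark squares, 1 library per point. The curves of *bmp4* nearly coincide. Between 10 and 11 hpf *nup107* MO lies above UIC for *bambi*, *szl*, *msx1*, *ventx1.1*, *ventx1.2*, *ventx2.1* and *ventx2.2*. At 11.5 hpf it lies below UIC for each of these genes. For *ventx3.1* and *ventx3.2* it lies above UIC at 10 and 11 hpf but not at 10.5 hpf.

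*bmp4* (gene6812), the ligand, was present at low levels from the first time point, with 1.46 TPM in *nup107* MO and 1.45 TPM in UIC at 2 hpf. It climbed steeply after 5 hpf, reaching 13.2 TPM in *nup107* MO and 15.3 TPM in UIC at 5.5 hpf, then 39.1 TPM in *nup107* MO and 31.2 TPM in UIC at 6 hpf. The increase between 5 and 6 hpf was 10.4-fold in *nup107* MO and 11.1-fold in UIC. A level of 0.5 times the maximum was crossed at 6.93 hpf in *nup107* MO and 6.96 hpf in UIC. *bmp4* peaked at 137 TPM in both conditions, at 10 hpf in *nup107* MO and 10.5 hpf in UIC. Between 9 and 12 hpf the 7 *nup107* MO libraries had a low of 109 TPM, a median of 130 TPM and a high of 137 TPM, against 112, 130 and 137 TPM in UIC. The 2 ranges overlapped almost completely. The MO to UIC ratio of *bmp4* had a median of 1.02 over the 21 time points, and its extremes, 0.764 at 2.5 hpf and 1.61 at 3.5 hpf, fell where *bmp4* was under 2 TPM in both conditions.

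The 6 *ventx* genes, the homeodomain repressors, were activated in nearly the same order in both conditions. Onset, the first of 3 consecutive time points at 1 TPM or more, came first for *ventx2.2* (gene8300), at 4.5 hpf in *nup107* MO and 5 hpf in UIC. *ventx2.1* (gene7852) and *ventx3.1* (gene336) began at 5 hpf in both conditions, *ventx3.2* (gene5886) at 5.5 hpf in both and *ventx1.2* (gene3667) at 6 hpf in both. *ventx1.1* (gene5368) began at 5 hpf in *nup107* MO and 5.5 hpf in UIC. Outside the *ventx* family, *szl* (gene6904) began at 5.5 hpf in *nup107* MO and 6 hpf in UIC, and *msx1* (gene6307) was the last, at 7.5 hpf in *nup107* MO and 8 hpf in UIC. Of these 8 genes with zygotic onset, 4 began 1 time point earlier in *nup107* MO and 4 at the same time point. The earlier onsets rested on values near the 1 TPM level: *msx1* at 7.5 hpf had 1.65 TPM in *nup107* MO and 0.97 TPM in UIC. With onset set at 5 TPM, 0 of the 8 genes began earlier in *nup107* MO, and *ventx1.2* began 0.5 h later, at 7 hpf in *nup107* MO and 6.5 hpf in UIC. With onset set at 0.5 TPM, 5 of the 8 began earlier in *nup107* MO, *msx1* by 1 h and the others by 0.5 h. Onset was not compared over all zygotic genes, so these counts have no background. Of zygotic genes at 5 TPM or more in both conditions, 86.4% were higher in *nup107* MO at 5 hpf and 21.2% at 5.5 hpf.

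The most abundant *ventx* transcript was *ventx2.1*, which peaked at 448 TPM at 10.5 hpf in *nup107* MO and 382.9 TPM at 11.5 hpf in UIC. *ventx2.2* peaked at 11 hpf in both conditions, with 362 TPM in *nup107* MO and 333.3 TPM in UIC. *ventx1.1* peaked at 285 TPM at 11 hpf in *nup107* MO and 229.05 TPM at 11.5 hpf in UIC. *ventx1.2* had a maximum of 143 TPM at 10.5 hpf in *nup107* MO and 112 TPM at 11 hpf in UIC. The highest *nup107* MO library lay above the highest UIC library for these and for all others of the 10 genes except *msx1*, narrowly so for *bmp4* and *ventx3.1*. Each maximum is the value of a single library. The share of genes with a higher maximum in *nup107* MO was not taken over all or zygotic genes. These higher maxima therefore have no background and do not show a raised peak of the ventral genes. *ventx3.2* peaked at 146 TPM at 11 hpf in *nup107* MO and 137 TPM at 11.5 hpf in UIC. *ventx3.1* alone among the 10 genes peaked before 10 hpf after a zygotic onset, with 68.7 TPM in *nup107* MO and 68.1 TPM in UIC, both at 7.5 hpf. It then had 38.3 TPM in *nup107* MO and 44.4 TPM in UIC at 9.5 hpf, and 56.9 TPM in *nup107* MO and 51.9 TPM in UIC at 12 hpf, so that both conditions kept this early peak and partial decline.

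The composition of the *ventx* pool was similar in both conditions at 12 hpf, and less so at 6 hpf. At 6 hpf, *ventx2.2* and *ventx2.1* made up 39.5% and 34.3% of the summed *ventx* TPM in *nup107* MO, against 41.9% and 28.4% in UIC. *ventx1.1* then held 11.1% in *nup107* MO and 8.51% in UIC, and *ventx3.2* held 3.34% in *nup107* MO and 5.81% in UIC. At 12 hpf *ventx2.1* held 31.0% in *nup107* MO and 30.7% in UIC, *ventx2.2* held 24.3% in *nup107* MO and 26.0% in UIC, and *ventx1.1* held 19.3% in *nup107* MO and 18.6% in UIC. The share of *ventx3.1* was 10.5% in *nup107* MO and 14.3% in UIC at 6 hpf, and at 12 hpf it was 5.00% in *nup107* MO and 4.67% in UIC. These shares have 1 library per condition and no test. The 6 genes are neighbors in the RefSeq annotation of the UCB_Xtro_10.0 assembly, in the order *ventx3.2*, *ventx1.2*, *ventx3.1*, *ventx2.2*, *ventx1.1*, *ventx2.1*. They are related in sequence, so that the split of reads between them by the authors' quantification is less certain than their sum.

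**Figure D2:**
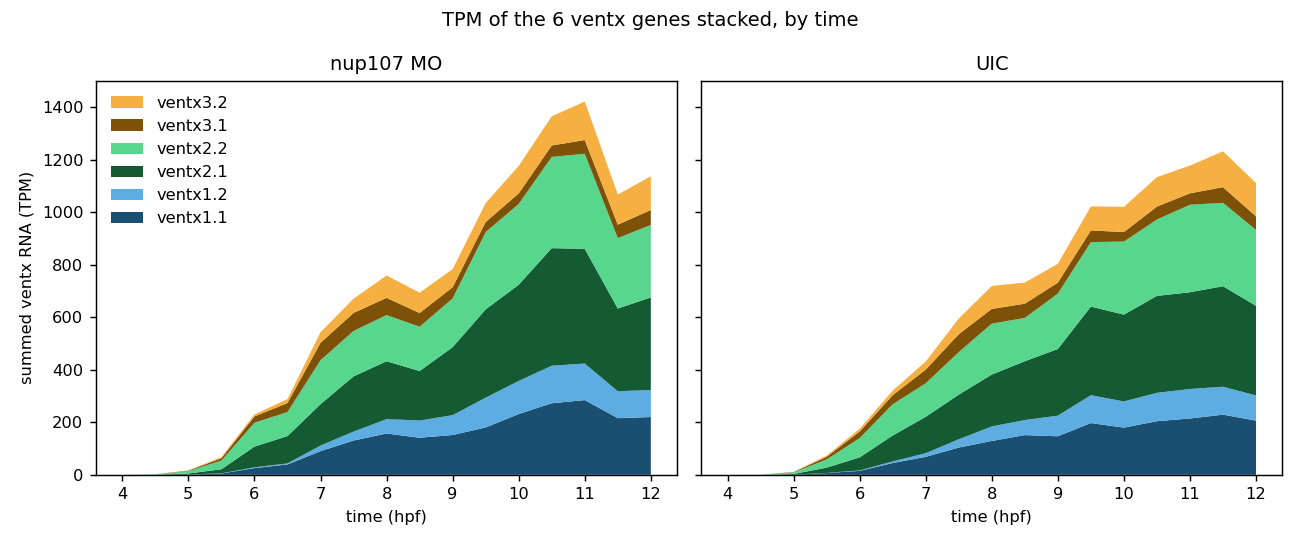
TPM of the 6 *ventx* genes stacked against time in hpf, *nup107* MO on the left and UIC on the right, on a shared linear axis from 0. At 12 hpf the layers have similar shares in both stacks. At 11 hpf the tops stand apart, with 1422 TPM in *nup107* MO and 1178 TPM in UIC.

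*szl*, the secreted feedback inhibitor, reached 55.5 TPM at 11 hpf in *nup107* MO and 45.2 TPM at 11.5 hpf in UIC. Its lowest MO to UIC ratio was 0.725 at 9.5 hpf, with 24.2 TPM in *nup107* MO and 33.3 TPM in UIC. Its highest was 1.58 at 11 hpf, with 55.5 TPM in *nup107* MO and 35.1 TPM in UIC. These values lay on either side of 1 within 1.5 h. *msx1*, the late homeodomain target, was still climbing at the last time point, at 175 TPM in both conditions. At 11 hpf it had 159 TPM in *nup107* MO and 123 TPM in UIC, its highest ratio at 1.29.

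*bambi* (gene30337), the pseudoreceptor, was the only one of the 10 genes with a large maternal store, at 522 TPM in *nup107* MO and 456 TPM in UIC at 2 hpf. It declined to a low of 166 TPM at 9.5 hpf in *nup107* MO and 160 TPM at 9 hpf in UIC. At 9 hpf it stood at 0.349 times its 2 hpf level in *nup107* MO and 0.350 times in UIC. A second phase brought it to 295 TPM in *nup107* MO and 263 TPM in UIC at 11 hpf. Both the decline in TPM and the second phase were thus present in *nup107* MO embryos. The decline was not steady. Between 5 and 6 hpf *bambi* went from 274 to 315 TPM in *nup107* MO and from 270 to 341 TPM in UIC. Whether the decline was loss of maternal RNA, a change of polyA tails or a mix with new transcripts was not tested. The MO to UIC ratio of *bambi* stayed between 0.885 and 1.19 over the 21 time points, the narrowest range of the 10 genes among time points at 1 TPM or more in both conditions. The ranges of the other genes include low TPM values. From 6.5 hpf on, that of *bmp4* was narrower than that of *bambi*, at 0.890 to 1.08.

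The differences were then averaged over windows of 7 time points, as log2((MO + 1)/(UIC + 1)) paired by time point and tested with limma, with Benjamini-Hochberg adjustment over all 15011 genes. This scale understates changes of genes at low TPM. None of the 10 genes was called between 2 and 5 hpf (8.05% of all genes called), 5.5 and 8.5 hpf (0.52%) or 9 and 12 hpf (10.8%), or in the mean of the 3 windows (18.1%). In that order, 1, 0, 1 and 2 of the 10 genes had an unadjusted p under 0.05, against 22.1%, 15.4%, 24.9% and 30.4% of all genes. Their median difference was 0.04, 0.06 and 0.08 in the 3 windows, against 0.03, -0.01 and 0.02 over all genes. The medians of all genes include maternal ones, and no window median was taken over zygotic genes alone. Between 2 and 5 hpf the genes with zygotic onset were near 0 TPM at most time points, and *ventx1.2* was at 0 TPM in both conditions. The lack of calls in that window therefore does not show likeness of these genes. That window also enters the mean of the 3 windows. It lowered the difference of *ventx1.2*, which was 0.16 in each later window and 0.11 in the mean. It raised that of *ventx2.2*, which was 0.22 in the first window, 0.06 and 0.04 in the later ones and 0.105 in the mean.

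**Figure D3:**
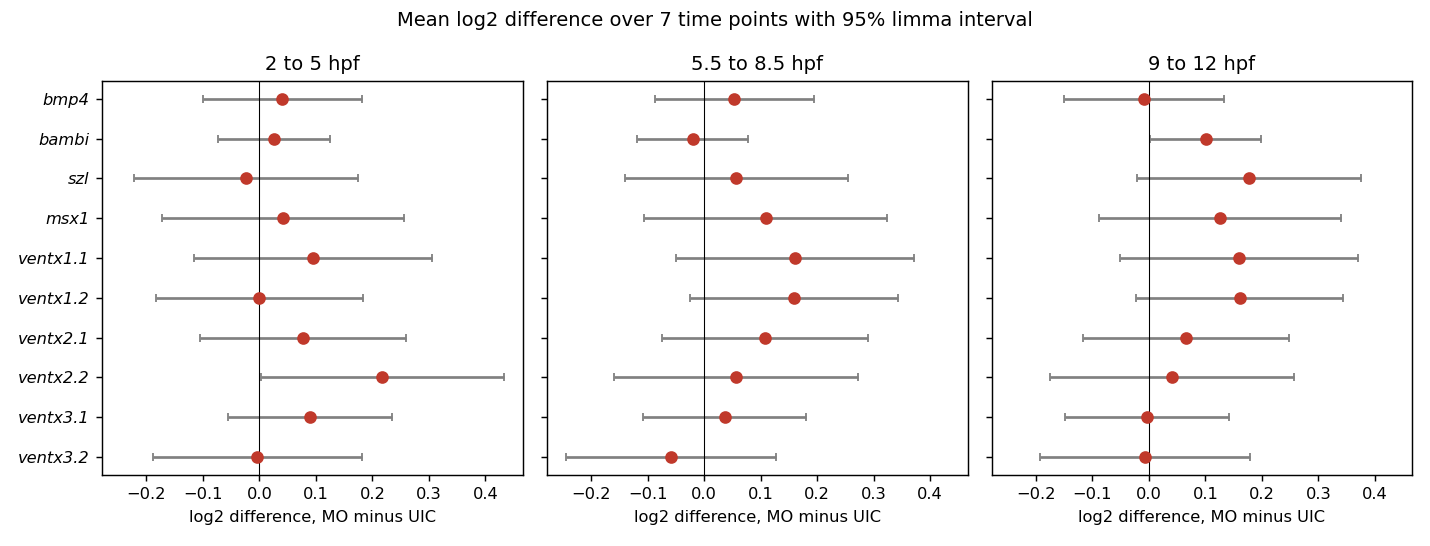
Mean log2 difference, *nup107* MO minus UIC, of each of the 10 genes in 3 windows of 7 time points, with 95% confidence intervals from limma as bars. The points lie between -0.06 and 0.22, and all but 2 intervals, those of *ventx2.2* in the first window and *bambi* in the last, include 0.

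Between 9 and 12 hpf, *bmp4* differed by -0.01 (95% confidence interval -0.15 to 0.13, adjusted p = 0.955 by limma). *szl* differed by 0.18 (-0.02 to 0.37, adjusted p = 0.259 by limma), with 38.4 ± 13.6 TPM in *nup107* MO and 33.0 ± 8.42 TPM in UIC (SD, n = 7 time points each). This value was -0.014 with the time points between whole hours alone, and 0.10 without 11 hpf and 0.28 without 9.5 hpf. *ventx1.2* differed by 0.16 (-0.02 to 0.34, adjusted p = 0.271 by limma), with 115 ± 23.6 TPM in *nup107* MO and 101 ± 11.3 TPM in UIC. *ventx1.1* differed by 0.16 (-0.05 to 0.37, adjusted p = 0.356 by limma), with 222 ± 47.1 TPM in *nup107* MO and 196.8 ± 26.7 TPM in UIC. The libraries of both conditions overlapped in each of these genes, and *nup107* MO was higher at 5 of 7 time points. *msx1* differed by 0.13, *bambi* by 0.10, *ventx2.1* by 0.07 and *ventx2.2* by 0.04, while *ventx3.1* and *ventx3.2* differed by less than 0.01 in size. *bambi* had the lowest adjusted p of the window (0.192 by limma). The 95% intervals of the 10 genes in this window, as folds on TPM + 1, ran from 0.875 to 1.30. They rest on 1 spread per gene, taken over all 3 windows. For *szl* the SD of the paired differences was 0.11, 0.24 and 0.36 in the 3 windows. Its interval may thus be too narrow for the last window, and larger mean changes were not excluded. The smallest adjusted p in any comparison was 0.112 by limma, for *ventx1.1* in the mean of the 3 windows, where the difference was 0.14 ± 0.06 (SE). It passed the threshold when values were scaled to the ERCC spike-ins (adjusted p = 0.042 by limma) and without the 5.5 hpf libraries (0.043), in a range over the alternatives from 0.042 to 1.00. *ventx1.2*, which differed by 0.11 ± 0.05 (SE, adjusted p = 0.162 by limma) in the mean of the windows, passed it with ERCC scaling (0.046) and without 6.5 hpf (0.012), in a range from 0.012 to 1.00. *szl* passed it between 9 and 12 hpf without 9.5 hpf (0.049), in a range from 0.049 to 1.00. The upper ends came from the fit without pairing by time point. That fit has no time term, so its spread includes the change with time within a window, and its lack of calls does not show likeness. The median of all genes in the mean of the windows was 0.06 with ERCC scaling and 0.01 without it. With ERCC scaling, limma called 19.3% of all genes in that mean. No gene of the 10 was called for a difference between the window of 5.5 to 8.5 hpf and that of 9 to 12 hpf (0.699% of all genes called, lowest adjusted p of the 10 genes 0.499 by limma).

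At some single time points most of the 10 genes deviated to the same side, and that side changed between some neighboring time points. It did not always change: *nup107* MO was higher for 8 of 9 genes at 5 TPM or more at both 7 and 7.5 hpf. At 7.5 hpf it was higher for 65.0% of zygotic genes. Among genes at 5 TPM or more in both conditions, *nup107* MO was higher for 2 of 6 genes at 5.5 hpf, 4 of 7 at 6 hpf, 2 of 8 at 6.5 hpf and 8 of 9 at 7 hpf. The median over these genes was -0.20, 0.30, -0.12 and 0.34 in log2 at these time points. The median of all genes with zygotic onset went the same way, at -0.12, 0.26, -0.04 and 0.17, with 21.2%, 74.5%, 43.5% and 65.7% of them higher. Summed *ventx* TPM moved with it: the MO to UIC ratio was 0.924 at 5.5 hpf, 1.32 at 6 hpf, 0.899 at 6.5 hpf and 1.26 at 7 hpf. These time points lie on the steep part of the curves, where *ventx2.1*, for example, increased 20.6-fold in *nup107* MO and 19.2-fold in UIC between 5 and 6 hpf.

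Between 10 and 11.5 hpf the side changed again. *nup107* MO was higher for 10 of 10 genes at 10 hpf, 7 of 10 at 10.5 hpf, 10 of 10 at 11 hpf and 1 of 10 at 11.5 hpf. The median difference was 0.15 for the 10 genes and 0.02 for zygotic genes at 10 hpf, 0.27 and 0.17 at 10.5 hpf, and 0.28 and 0.03 at 11 hpf, and at 11.5 hpf it was -0.10 for the 10 genes and 0.00 for zygotic genes. At 12 hpf, 7 of 10 genes were higher in *nup107* MO, with a median of 0.07, against 48.4% of zygotic genes with a median of -0.01. The summed *ventx* ratio was 1.21 at 11 hpf and 0.866 at 11.5 hpf. With whole-hour time points alone, 10 of 10 genes had a difference above 0 between 9 and 12 hpf, and with the time points between whole hours alone 5 of 10. The median of all genes went the other way, at -0.01 with whole-hour time points and 0.04 with those between. Running numbers in the sample titles, whose meaning the labels do not give, fall into 4 separate runs, for even hours, odd hours and the time points 0.5 h after each. *nup107* MO and UIC libraries of a time point are in the same run. Between 9 and 12 hpf the 10 genes had a difference above 0, averaged within a run, in 9 of 10 for even hours, 9 of 10 for odd hours, 7 of 10 for the single time point 0.5 h after an even hour and 3 of 10 for those 0.5 h after odd hours. The medians were 0.15, 0.16, 0.27 and -0.12, against 0.08 over all 7 time points. No share of all genes above 0 was taken for these runs, or for whole hours and the time points between. The part of these runs, or of single pools of embryos, in the values was not tested.

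**Figure D4:**
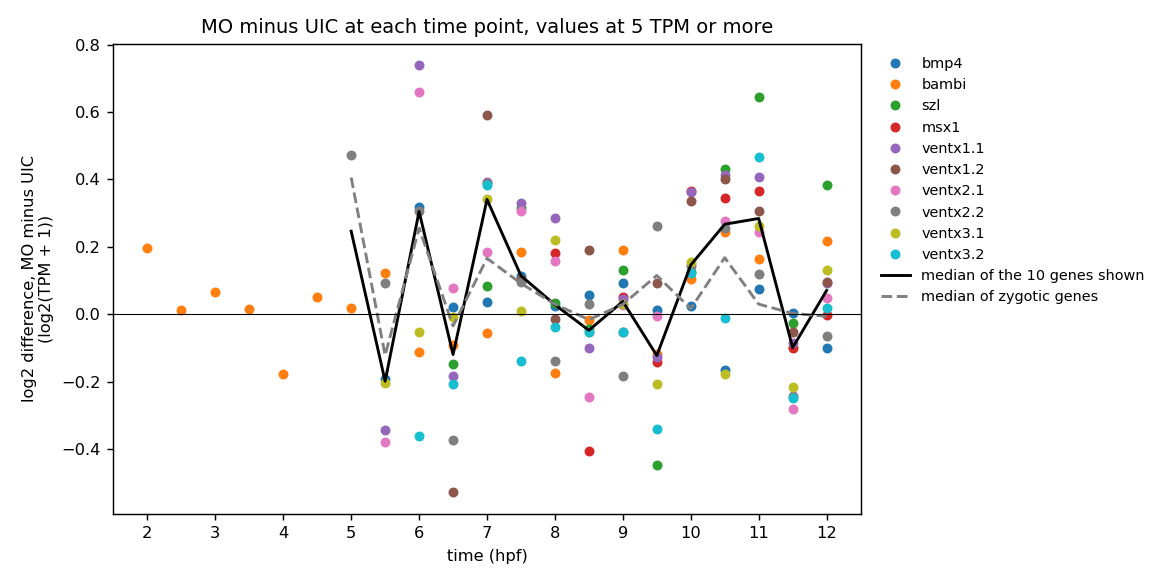
Log2 difference, *nup107* MO minus UIC, of log2(TPM + 1) at each time point in hpf, 1 point per gene at 5 TPM or more in either condition. The lines are medians over genes at 5 TPM or more in both conditions, among the 10 genes (black line) and among zygotic genes (grey dashes). The lines begin at 5 hpf and up to 8.5 hpf change in the same direction at each step, and at 11 hpf they are 0.28 and 0.03.

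The time of mid-level expression depended on the maximum used. Measured against each condition's own maximum, the crossing times of 0.5 times the maximum, *nup107* MO minus UIC, ran from -17.2 min for *msx1* to 105 min for *szl* over the 8 zygotic genes, with a median of 22.2 min. The median over 1229 zygotic genes was -6.89 min. The 2 largest shifts belonged to *szl* and *ventx2.2*. Their maxima were higher in *nup107* MO, but so was that of *ventx1.1*, whose shift was 0.32 min. After a running mean of 3 time points the median shift was 2.84 min, with *ventx2.2* at 2.33 min and *szl* at 101 min. *szl* crossed at 9.78 hpf in *nup107* MO and 8.02 hpf in UIC, and *ventx2.2* at 8.86 hpf in *nup107* MO and 7.57 hpf in UIC. Measured against 0.5 times the UIC maximum in both conditions, *szl* crossed at 7.91 hpf in *nup107* MO and 8.02 hpf in UIC, and *ventx2.2* at 6.99 hpf in *nup107* MO and 7.57 hpf in UIC. The median shift was then -12.9 min, with a range from -34.7 to 4.46 min. Sampling was every 30 min, and these shifts have no test.

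The curves of most of the 10 genes resembled each other. The likeness was measured as Pearson's r of log2(TPM + 1) over the 42 libraries, which share the time course, so that any 2 genes with a similar onset correlate and no p is given. Between *bmp4* and *szl* or a *ventx* gene r was 0.949 to 0.997, and between *bmp4* and *msx1* it was 0.769. *bmp4* was most like LOC100489354 (r = 0.997), *ventx2.1* (0.997) and *wnt8a* (0.996), a ligand gene of the ventral and lateral mesoderm. *ventx2.2* was most like *ventx2.1* (0.994), and *ventx3.2* was most like *ventx1.1* (0.996). *ventx1.1* was most like LOC105947280 (0.998), followed by LOC100488209 (0.997) and *tfap2a* (0.996), a transcription factor gene of the non-neural ectoderm. *ventx1.2* was most like *cnfn.1* (0.998) and *cnn1* (0.998), and *szl* resembled *grhl3* (0.996), an epidermal transcription factor gene, and *olfm4* (0.995). *ventx3.1* had *admp* (0.991), a BMP-like ligand gene of the organizer, among its 3 nearest genes. *msx1* was most like *cdx2* (0.997), *msgn1* (0.996) and *dlx3* (0.996), which encode transcription factors of the posterior, the paraxial mesoderm and the ectoderm. *bambi* was most like *f2r* (0.962), *enc1* (0.945) and *sec24d* (0.945), and its r with the other 9 genes was negative, between -0.81 and -0.60.

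Of 59 other genes of the BMP pathway that were tested, in lists of ligands, secreted modulators, receptors, Smads and intracellular regulators, and targets, the GP test called 2, both higher in *nup107* MO. That is 3.39% of the 59, against 7.24% of all genes. *smad4.2*, a gene of the common Smad, had 10.2 ± 2.32 TPM in *nup107* MO and 5.16 ± 1.54 TPM in UIC between 9 and 12 hpf (SD, n = 7 time points each). Its LR was 0.92 and its log2 difference in that window was 0.88 (adjusted p = 0.0018 by limma), higher at 7 of 7 time points. The more abundant *smad4.1*, also a gene of the common Smad, was not called. It had 45.4 ± 9.46 TPM in *nup107* MO and 42.8 ± 7.43 TPM in UIC in that window. Its LR was -9.66 and its log2 difference 0.08 (adjusted p = 0.706 by limma). *map3k7*, which encodes the kinase Tak1, had 76.8 ± 7.83 TPM in *nup107* MO and 67.0 ± 5.11 TPM in UIC, with an LR of 1.68 and a log2 difference of 0.19 (adjusted p = 0.00039 by limma, higher at 7 of 7 time points). It was also called between 5.5 and 8.5 hpf, at 0.15 (adjusted p = 0.033 by limma). The LRs of *smad4.2* and *map3k7* were both under the stricter level of 3. limma called 7 of the 59 in at least 1 window, or 11.9%, against 17.2% of all genes. These are *smad4.2*, *map3k7* and 5 more genes in 1 window each, all higher in *nup107* MO, where the calls over all genes were 1038 higher and 171 lower in the early window and 844 higher and 780 lower in the late window. Between 9 and 12 hpf these were *bmp1*, a protease gene whose product cleaves Chordin and is inhibited by Sizzled (0.22, adjusted p = 0.044 by limma), *smad7*, an inhibitory Smad gene (0.16, adjusted p = 0.044 by limma), and *skil*, a Smad corepressor gene (0.23, adjusted p = 0.047 by limma). Between 2 and 5 hpf they were the receptor gene *bmpr1a* (0.28, adjusted p = 0.0070 by limma) and *znf521* (0.11, adjusted p = 0.0497 by limma). Neither test called any of 19 BMP target genes or 6 ligand genes, of which *bmp4* is one. Among 9 dorsal organizer genes, the GP test called 0 and limma called *frzb*, a Wnt antagonist gene, between 5.5 and 8.5 hpf (0.34, adjusted p = 0.035 by limma), a window with 0.52% of all genes called. The organizer genes had a median difference of 0.20 in that window and -0.03 between 9 and 12 hpf, against -0.01 and 0.02 over all genes. All genes include maternal ones, and no window median was taken over zygotic genes alone. In whole embryos, fewer cells of a type and less RNA per cell cannot be told apart.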

How the data were processed

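PolyA+ RNA-seq of whole *X. tropicalis* embryos was analysed in 42 libraries. Conditions and times came from the sample labels. Another 42 labelled samples, ribozero libraries, were not analysed here, since the table named for them was identical to the polyA+ table. Whether the values come from polyA+ or ribozero libraries could not be checked. STAR alignment to Xt9.1 plus the ERCC sequences and RSEM quantification were done by the authors, who deposited TPM for each gene. A dinucleotide correction preceded the study's own test and is absent from these deposited TPM.

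Genes with 6 consecutive time points over 0.4 TPM in either condition were tested, and all 10 genes described passed. The GP test followed the study: a square-root transform (alpha 1, beta 1000), a Matern 5/2 kernel, normal priors on the logs of amplitude, length scale and noise (means 3, 2 and 0, SDs 2, 4 and 4), a GP mean of 0 and a call at an LR over 0. limma 3.58.1 (R 4.3.3) tested differences of log2(TPM + 1) paired by time point, with a mean-variance trend, and Benjamini-Hochberg adjustment at 0.05. A time point served as the block because embryos of the same parents were collected together. p-values measure the spread between time points, which are not independent cultures, and neighboring time points are not independent. Other software was numba 0.67.0, matplotlib 3.10.9, pandas 2.3.3, numpy 2.4.6 and scipy 1.17.1 under Python 3.11.15. Scripts were tested on simulated data.

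The genes named are the 10 genes, every pathway gene called, and for each of the 10 the 3 genes most correlated with it among those with a symbol reaching 5 TPM, of which some are given. *frzb* and *smad4.1* were named after their values were seen. The 10 genes and the pathway lists were chosen with earlier results of these data known. Zygotic genes are tested genes with onset after 3 hpf in UIC that reached 5 TPM in both conditions. Sequences and coordinates were not used here, and the planned description of promoters and proteins was not run. Gene order came from RefSeq, where 10 of 10 symbols matched.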

Additional observations from a re-analysis of the deposited data

How the results depend on the processing

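The GP test called 0 of the 10 genes under each of its 6 alternatives, and limma called 0 in the early (2 to 5 hpf) and middle (5.5 to 8.5 hpf) windows under each of its alternatives. In the mean of the windows limma called 2 of the 10 with ERCC scaling (*ventx1.1* and *ventx1.2*), where 19.3% of all genes were called. In that mean it called 0 to 1 when each time point was left out (*ventx1.1* without 5.5 hpf, *ventx1.2* without 6.5 hpf). In the late window it called 0 to 1 when each time point was left out (*szl* without 9.5 hpf). Over all genes, the GP test called 7.24%, against 22.9% with no filter, 3.82% at an LR over 3 and 17.3% with the mean subtracted. The share of these calls higher in *nup107* MO was 72.4%, against 86.8% with ERCC scaling, 60.3% with the mean subtracted and 54.5% with no filter. limma called 8.05% of all genes in the early, 0.52% in the middle and 10.8% in the late window and 18.1% in the mean. In that order it called 3.25%, 0.18%, 5.65% and 8.85% with no filter, 0.027%, 0.0067%, 0.993% and 0.673% with whole-hour time points, and 1.45%, 0.027%, 2.49% and 8.01% with the time points between them. Without the replicate block (no pairing by time point) it called 0.013%, 0.0067%, 0.080% and 1.64% of all genes and 0 of the 10 genes. The spread of that fit includes the change with time within a window, so it could hardly call genes that rise steeply. In the middle window it called 0.999% with a pseudocount of 5 TPM, 0.133% with ERCC scaling and 0.306% with no mean-variance trend, an alternative chosen after seeing the data, and ERCC scaling gave 5.19% in the late window. Leaving out each time point gave 3.48% to 10.3%, 0.207% to 2.99%, 6.62% to 11.4% and 15.5% to 18.8%, the ends of the middle range without 8.5 hpf and without 9 hpf. Late differences changed sign in 5 genes. With ERCC scaling *bmp4* was 0.067, *ventx3.1* 0.070 and *ventx3.2* 0.068, and with whole-hour time points they were 0.023, 0.144 and 0.139. With the time points between whole hours *szl*, at 0.18 with all time points the largest of the 10, was -0.014 and *ventx2.1* -0.0026. Leaving out each time point, *bmp4* ran from -0.025 to 0.018, *ventx3.1* from -0.048 to 0.031 and *ventx3.2* from -0.085 to 0.049. *szl* ran from 0.099 (without 11 hpf) to 0.281 (without 9.5 hpf), *ventx2.1* from 0.031 (without 10.5 hpf) to 0.124 (without 11.5 hpf) and *ventx2.2* from 0.0045 (without 9.5 hpf) to 0.089 (without 11.5 hpf). Of the 8 zygotic genes, 4 began earlier in *nup107* MO at 1 TPM, 5 at 0.5 TPM and 0 at 5 TPM, with no count taken over all zygotic genes. The median shift of the 8 genes in the time of 0.5 times the maximum was 22.2 min. It was -12.9 min against the UIC maximum, -7.99 min with ERCC scaling and 2.84 min after a running mean of 3 time points. The cause was not tested for any of these. With 1 library per time point and no read counts, changes limited to single time points were not testable.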
